A study of Mus musculus with 4 samples.

Results

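Apoe, Trem2, Tyrobp, Pltp, Abca1 and Abcg1 are 6 genes of lipoprotein and cholesterol handling in macrophages (Mφs), and their rows were followed in 4 tables of unique molecular identifier (UMI) counts from sorted leukocytes of the mouse small intestine. They were named by gene symbol and not by a rule on their values, but with earlier results of these data known. They are 6 of the 16308 genes in each table. All 6 had UMIs in all 4 libraries. The cells were CD45+ cells (CD45 is the protein of Ptprc, carried by all leukocytes) from the muscularis, the outer muscle layer of the gut with its nerve plexus. Inflammation of this layer had been induced by intestinal manipulation, a standardised surgical handling of the gut. WT mice were C57BL/6J and CCR2-/- mice carried the targeted allele of the strain B6.129S4-Ccr2tm1Ifc/J in every cell, at an age of 12 weeks in both genotypes. CCR2 is the chemokine receptor with which monocytes leave the bone marrow. Cells had been taken 24 h and 72 h post-injury, with 1 library for each genotype and time. Each library held pooled cells of several mice. Without replicate libraries no difference could be tested, and the intervals given below (95%, exact) cover counting error only, not the spread between mice.

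Apolipoprotein E, the product of Apoe, is the protein with which Mφs package cholesterol and phospholipid for export. TREM2 is a lipid-sensing receptor of Mφs that binds lipoproteins containing ApoE, and it signals through the adaptor DAP12, which is encoded by Tyrobp and shared by many activating receptors of myeloid and natural killer (NK) cells. ABCA1 and ABCG1 are the membrane pumps that load cholesterol onto lipoproteins, PLTP moves phospholipids between them, and Apoe, Abca1, Abcg1 and Pltp are textbook targets of the oxysterol-sensing liver X receptors (LXRs).

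In the GENCODE annotation of GRCm38 all 6 are protein-coding. Apoe lies at chr7:19696109-19699188 on the minus strand and Tyrobp at chr7:30413760-30417585 on the plus strand. Trem2 is at chr17:48346401-48354147 and Abcg1 at chr17:31057675-31117988, both on the plus strand. Pltp is at chr2:164839518-164857711 and Abca1 at chr4:53030787-53159895, both on the minus strand. RefSeq promoter sequences (GRCm38.p6, 250 bases before to 50 after the start site) matched 4 of the 6 genes. They are printed for the 3 genes that were higher together in WT Mφs at 72 h (Apoe, Trem2 and Pltp) and for the pump gene Abca1, whose promoter is a known LXR target. Of the 3 Apoe start sites in RefSeq the one shared with GENCODE is shown. The windows are chr7:19699139-19699438 (minus strand) for Apoe, chr17:48346151-48346450 (plus) for Trem2, chr2:164857659-164857958 (minus) for Pltp and chr4:53159846-53160145 (minus) for Abca1. Capitals mark matches on either strand to AGGTCA (the half-site of nuclear receptors) and to GAGGAA (the core bound by the myeloid factor PU.1). They also mark the DR4 repeat, the paired site of LXR, with the first base of each repeat unit left free. This repeat can overlap the half-site but did not here.
Apoe: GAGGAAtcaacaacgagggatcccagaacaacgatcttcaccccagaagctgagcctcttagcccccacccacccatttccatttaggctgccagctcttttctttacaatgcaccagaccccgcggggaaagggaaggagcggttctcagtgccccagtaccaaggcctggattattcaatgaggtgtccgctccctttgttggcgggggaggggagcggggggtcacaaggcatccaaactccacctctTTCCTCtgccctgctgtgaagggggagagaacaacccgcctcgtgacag
Trem2: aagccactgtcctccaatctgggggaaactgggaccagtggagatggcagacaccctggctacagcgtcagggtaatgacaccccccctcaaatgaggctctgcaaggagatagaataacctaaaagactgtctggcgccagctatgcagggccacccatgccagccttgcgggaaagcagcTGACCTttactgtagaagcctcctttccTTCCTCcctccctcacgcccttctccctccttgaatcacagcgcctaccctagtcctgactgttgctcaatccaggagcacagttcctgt
Pltp: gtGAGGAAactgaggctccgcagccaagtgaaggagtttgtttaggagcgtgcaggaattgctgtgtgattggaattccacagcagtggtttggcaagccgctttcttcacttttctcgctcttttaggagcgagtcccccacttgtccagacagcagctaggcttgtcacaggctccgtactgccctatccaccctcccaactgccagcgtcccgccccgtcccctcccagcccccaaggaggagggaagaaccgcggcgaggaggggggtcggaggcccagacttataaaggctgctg
Abca1: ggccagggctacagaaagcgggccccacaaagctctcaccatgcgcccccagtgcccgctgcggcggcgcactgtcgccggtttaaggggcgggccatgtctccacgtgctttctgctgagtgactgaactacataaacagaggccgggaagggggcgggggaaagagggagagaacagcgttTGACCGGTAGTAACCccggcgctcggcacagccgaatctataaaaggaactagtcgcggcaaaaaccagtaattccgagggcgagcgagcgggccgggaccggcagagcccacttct
GAGGAA was found in the Apoe window at -250 to -245 and, on the minus strand, at 1 to 6 from the start site, in the Trem2 window, on the minus strand, at -40 to -35 and in the Pltp window at -248 to -243. AGGTCA was found in the Trem2 window alone among the 4, on the minus strand at -68 to -63. The DR4 repeat in this loosened form was found in the Abca1 window alone, on the minus strand at -67 to -53. With no base left free it matched none of the 4 windows, and 0.231% of mouse promoters of this length. Of 32841 mouse promoters of this length, 28.3% held GAGGAA, 16.3% AGGTCA and 0.621% the DR4 repeat in this form, so the first 2 motifs are common sequences.

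The 4 libraries held 1674 (WT 24 h), 1774 (CCR2-/- 24 h), 1315 (WT 72 h) and 1048 (CCR2-/- 72 h) cells with 9736725 to 21206308 UMIs, and 1 to 3 cell barcodes per library also occurred in another library. Cell classes were rebuilt from marker genes, without the 6 genes, so class names carry "-like" and can differ from those of the study. Cells like monocytes and Mφs (Mo/Mφ-like) made up 76.3% (1277 cells), 12.4% (219), 66.2% (871) and 14.1% (147) of the cells in the order just given. Their median depth was alike, at 12695 to 15791 UMIs per cell, and 10 of 10 markers of the class reached 20 UMIs per 1000000 (CPM) in each library. The class had been named from these same markers, so this is no separate check of it. Markers of other cells in the class were uneven: 4 plasma cell markers summed to 246 CPM in CCR2-/- 72 h (1 of 4 at 20 CPM) and to 5.56 to 13.8 CPM elsewhere (0 of 4, Mzb1 at 0). Of 9 neutrophil markers 3 to 5 reached 20 CPM, with a sum of 823 CPM in WT 24 h and 243 to 320 CPM elsewhere, and 6 T cell markers summed to 0.416 to 31.1 CPM, with none at 20 CPM. The targeted gene Ccr2 had 754 CPM in WT and 95.2 CPM in CCR2-/- Mo/Mφ-like cells at 24 h, and 1061 against 82.7 CPM at 72 h. Whether the 3′ tags lie in its deleted part is not given in the sources used here. The median mitochondrial share in the class was 3.54% to 4.31% in 3 libraries and 5.84% in CCR2-/- 72 h.

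Transcripts of Apoe and Trem2 were found mainly in Mo/Mφ-like cells, whatever the makeup of the library. These cells held 99.6%, 97.2%, 96.2% and 96.1% of all Apoe UMIs and 99.8%, 98.9%, 96.9% and 93.6% of all Trem2 UMIs in WT 24 h, CCR2-/- 24 h, WT 72 h and CCR2-/- 72 h. In the CCR2-/- libraries, where they were few, they nonetheless held 65.7% (24 h) and 71.0% (72 h) of Abca1 UMIs. They held only 40.8% and 29.9% of Pltp, 27.1% and 25.1% of Abcg1 and 20.4% and 15.8% of Tyrobp UMIs there. Most Tyrobp, Abcg1 and Pltp UMIs of the CCR2-/- libraries thus lay in other leukocytes.

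**Figure D1:**
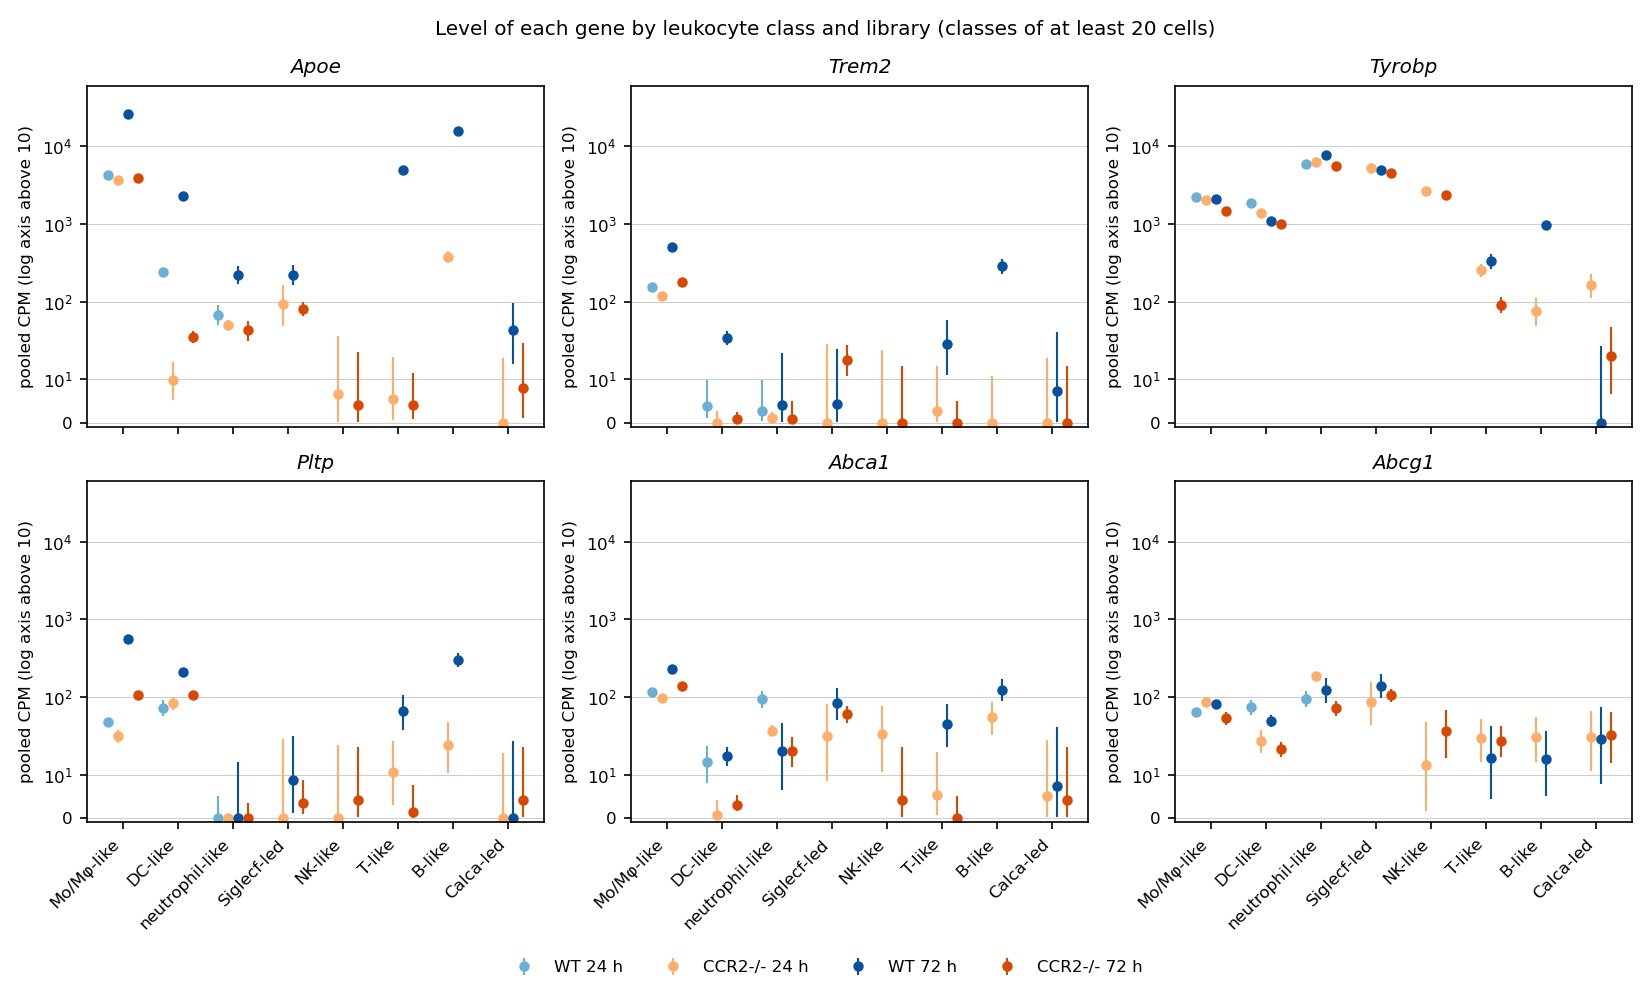
Pooled level of each gene (CPM, log axis above 10) by leukocyte class of at least 20 cells, with 1 point per library and exact 95% Poisson intervals as bars. Apoe and Trem2 are highest in Mo/Mφ-like cells of WT 72 h (25967 and 507 CPM), Tyrobp in neutrophil-like cells (5656 to 7659 CPM), and the high T-like and B-like Apoe points of WT 72 h include droplets that also hold Mφ markers.

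Apoe in Mo/Mφ-like cells stood at 4313 CPM (95% interval 4284 to 4343) in WT 24 h, 3659 CPM (3597 to 3722) in CCR2-/- 24 h, 25967 CPM (25878 to 26057) in WT 72 h and 3914 CPM (3829 to 4000) in CCR2-/- 72 h. The WT 72 h library stood alone, and the other 3 lay close together. The median cell had 23604 Apoe CPM in WT 72 h, against 2809, 2285 and 1165 CPM in WT 24 h, CCR2-/- 24 h and CCR2-/- 72 h. After each cell had been thinned at random to 1000 UMIs, 96.2% of WT 72 h cells kept an Apoe UMI (interval 94.7% to 97.3%), against 77.6% (75.2% to 79.9%), 74.3% (67.9% to 80.0%) and 67.7% (58.9% to 75.6%) in the same other libraries. Without thinning the shares were 93.7%, 91.3%, 98.7% and 80.3% in WT 24 h, CCR2-/- 24 h, WT 72 h and CCR2-/- 72 h. In T cell-like cells, which should lack Apoe, 0 of 12, 0 of 47 and 0 of 77 thinned cells had an Apoe UMI in WT 24 h, CCR2-/- 24 h and CCR2-/- 72 h. With 3 counts taken as the limit of a zero, which is not an exact interval, this allows shares of up to 25.0%, 6.38% and 3.90%. In WT 72 h 4 of 32 T cell-like cells (12.5%) had an Apoe UMI. Median depth in these T cell-like cells was 4782, 7199, 8713 and 6559 UMIs.

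The whole distribution of Apoe per cell lay higher in WT 72 h. Cells with at least 16 Apoe UMIs per 1000 made up 66.3% of WT 72 h Mo/Mφ-like cells (570 of 860), against 4.74% (60 of 1267) in WT 24 h, 4.67% (10 of 214) in CCR2-/- 24 h and 4.62% (6 of 130) in CCR2-/- 72 h. Cells without an Apoe UMI at this depth were 3.84% in WT 72 h and 22.4%, 25.7% and 32.3% in the other 3. The 10% of cells richest in Apoe held 27.2% of its UMIs in WT 72 h and 58.7% in CCR2-/- 72 h.

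**Figure D2:**
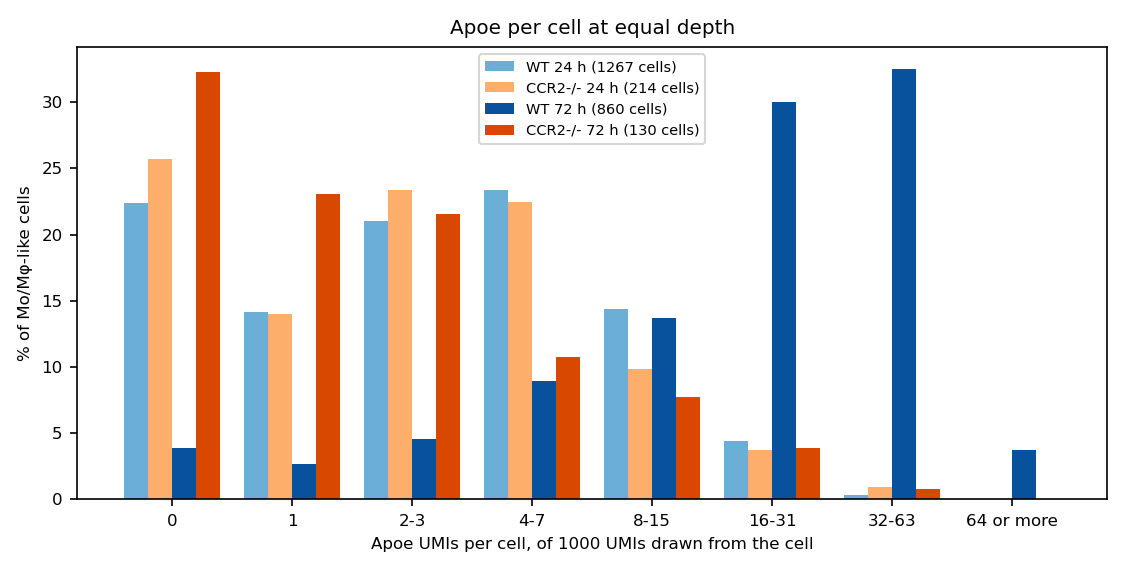
Share of Mo/Mφ-like cells (y axis, %) by the number of Apoe UMIs in 1000 UMIs drawn from the cell (x axis, in classes), with 1 bar per library. Most WT 72 h cells lie in the classes of 16 and more UMIs (66.3%), where the other 3 libraries have 4.62% to 4.74% of theirs.

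Trem2, the receptor gene, was also highest in WT 72 h. Its level in Mo/Mφ-like cells was 153 CPM (147 to 159) in WT 24 h, 119 CPM (108 to 131) in CCR2-/- 24 h, 507 CPM (495 to 520) in WT 72 h and 178 CPM (161 to 198) in CCR2-/- 72 h. Thinned cells with a Trem2 UMI made up 13.2%, 9.81%, 36.0% and 16.9%, and unthinned cells 65.2%, 56.2%, 88.2% and 64.6%. Its adaptor gene Tyrobp was nearly even across the class, with 2207 CPM (2186 to 2228), 2058 CPM (2012 to 2105), 2128 CPM (2102 to 2154) and 1482 CPM (1430 to 1535) in the same order. The lowest Tyrobp level was that of CCR2-/- 72 h, and the other 3 libraries differed little.

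Pltp, the phospholipid transfer protein gene, had the widest range of the 6 genes between libraries. It stood at 47.5 CPM (44.4 to 50.7) in WT 24 h, 31.1 CPM (25.6 to 37.4) in CCR2-/- 24 h, 560 CPM (547 to 573) in WT 72 h and 105 CPM (91.1 to 120) in CCR2-/- 72 h. Thinned cells with a Pltp UMI were 4.50%, 5.14%, 34.1% and 10.0%. Both 72 h libraries lay above both 24 h libraries, with WT 72 h far above the rest.

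The pump genes were flatter. Abca1 had 114 CPM (110 to 119), 96.8 CPM (87.0 to 107), 226 CPM (218 to 234) and 137 CPM (122 to 154) in WT 24 h, CCR2-/- 24 h, WT 72 h and CCR2-/- 72 h, with WT 72 h again the highest. Abcg1 had 63.2 CPM (59.7 to 66.9), 85.0 CPM (75.8 to 95.03), 81.3 CPM (76.3 to 86.5) and 53.0 CPM (43.5 to 63.9). The highest Abcg1 levels, CCR2-/- 24 h and WT 72 h, had overlapping intervals, and WT 72 h did not stand apart for this gene.

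In WT Mo/Mφ-like cells 3 of the 6 genes were at least 2-fold higher at 72 h than at 24 h, and none was that much lower. A difference was counted when the log2 ratio of CPM + 5 was at least 1 in size and the gene reached 20 CPM in 1 of the 2 libraries. By this rule 5.2% of 6189 genes were higher and 4.85% lower. The log2 ratios were 2.59 for Apoe (interval 2.58 to 2.60), 1.70 for Trem2 (1.64 to 1.76) and 3.43 for Pltp (3.34 to 3.52), which are 6.01-fold, 3.24-fold and 10.8-fold. Abca1, at 0.95 (0.88 to 1.03), lay just inside the limit. The values of Abcg1, 0.34 (0.22 to 0.45), and Tyrobp, -0.05 (-0.07 to -0.03), were small. The median over the 6 genes was 1.33 and over all genes tested -0.04. The myeloid gene Lyz2 (lysozyme) had 0.54, the complement gene C1qa 1.59 and the pan-leukocyte gene Ptprc 0.47.

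In CCR2-/- Mo/Mφ-like cells only Pltp passed the same rule between 24 h and 72 h. Its log2 ratio was 1.60 (1.30 to 1.90), 3.04-fold, where 7.69% of 6440 genes were higher and 4.02% lower. Apoe had 0.10 (0.06 to 0.14), Trem2 0.57 (0.37 to 0.76), Tyrobp -0.47 (-0.53 to -0.41), Abca1 0.48 (0.26 to 0.70) and Abcg1 -0.63 (-0.93 to -0.34). Among the 50 CCR2-/- 72 h cells with at most 5% mitochondrial UMIs, Pltp had 0.77 and no longer passed. The sign of the small Apoe value was not stable either, with a range of -0.33 to 0.49 over 13 other settings, and Abca1 had -0.49 among the cells with at most 5% mitochondrial UMIs. The median was 0.29 over the 6 genes and 0.13 over all genes tested.

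At 72 h CCR2-/- Mo/Mφ-like cells had at least 2-fold less Apoe, Trem2 and Pltp than WT cells, and none of the 6 genes was that much higher. Of 6413 genes, 1.95% were lower and 4.13% higher. The log2 ratios were -2.73 for Apoe (-2.76 to -2.70), -1.48 for Trem2 (-1.63 to -1.33) and -2.37 for Pltp (-2.56 to -2.18), which are 6.63-fold, 2.79-fold and 5.16-fold lower. Abca1 had -0.70 (-0.88 to -0.53), Abcg1 -0.57 (-0.84 to -0.31) and Tyrobp -0.52 (-0.57 to -0.47). Lyz2, a myeloid gene and a marker of the class, had -1.21 (-1.24 to -1.19), 17406 CPM in WT against 7504 in CCR2-/-. C1qa had -0.64 and Ptprc -0.08. The median was -1.09 over the 6 genes and 0.12 over all genes tested. The plasma cell markers and the higher mitochondrial share of the CCR2-/- 72 h class moved with these ratios. Without the sub-clusters led by genes of dividing cells, dendritic cells, neutrophils or lymphocytes Apoe had -2.44, and among cells with at most 5% mitochondrial UMIs it had -3.00 and Abca1 -1.52.

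At 24 h none of the 6 genes passed the rule over the whole class, where 2.25% of 5873 genes were higher and 0.954% lower in CCR2-/-. The log2 ratios were -0.24 (-0.26 to -0.21) for Apoe, -0.35 (-0.49 to -0.21) for Trem2, -0.10 (-0.14 to -0.07) for Tyrobp, -0.54 (-0.79 to -0.29) for Pltp, -0.23 (-0.39 to -0.07) for Abca1 and 0.40 (0.23 to 0.57) for Abcg1. Within the class, sub-clusters of at least 20 cells in both libraries differed more for some of these genes. In the Gm9733-led Ly6c monocyte-like cells (290 in WT, 34 in CCR2-/-) Apoe had 6533 CPM in WT and 2285 CPM in CCR2-/-, Trem2 144 and 53.0 CPM, Pltp 71.0 and 25.7 CPM and Abca1 69.8 and 32.1 CPM. In an unnamed Fabp4-led sub-cluster (46 and 77 cells) Apoe had 3736 CPM in WT and 1667 CPM in CCR2-/-, Trem2 193 and 95.1 CPM and Pltp 28.0 and 5.32 CPM. Apoe, Trem2 and Pltp were thus lower in CCR2-/- in both of these sub-clusters, but Trem2 was closer between genotypes in the next 2. In Fabp5-like cells (339 and 20 cells) Apoe was closer, at 3504 CPM in WT and 2906 CPM in CCR2-/-. Pltp stood there at 33.3 CPM in WT and 6.16 CPM in CCR2-/-, and Trem2 at 213 and 243 CPM. The 20 CCR2-/- cells held only 1.77% of the 113 Pltp UMIs of their class, too few for a level. In Cx3cr1-like cells (24 and 48 cells) Apoe had 11908 and 8661 CPM, Pltp 214 and 75.7 CPM and Trem2 176 and 193 CPM. No direction is read from the small Trem2 differences of the last 2 sub-clusters, for which no intervals are given here. Each of the 4 libraries enters 2 of these comparisons, so the comparisons are not independent of each other.

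**Figure D3:**
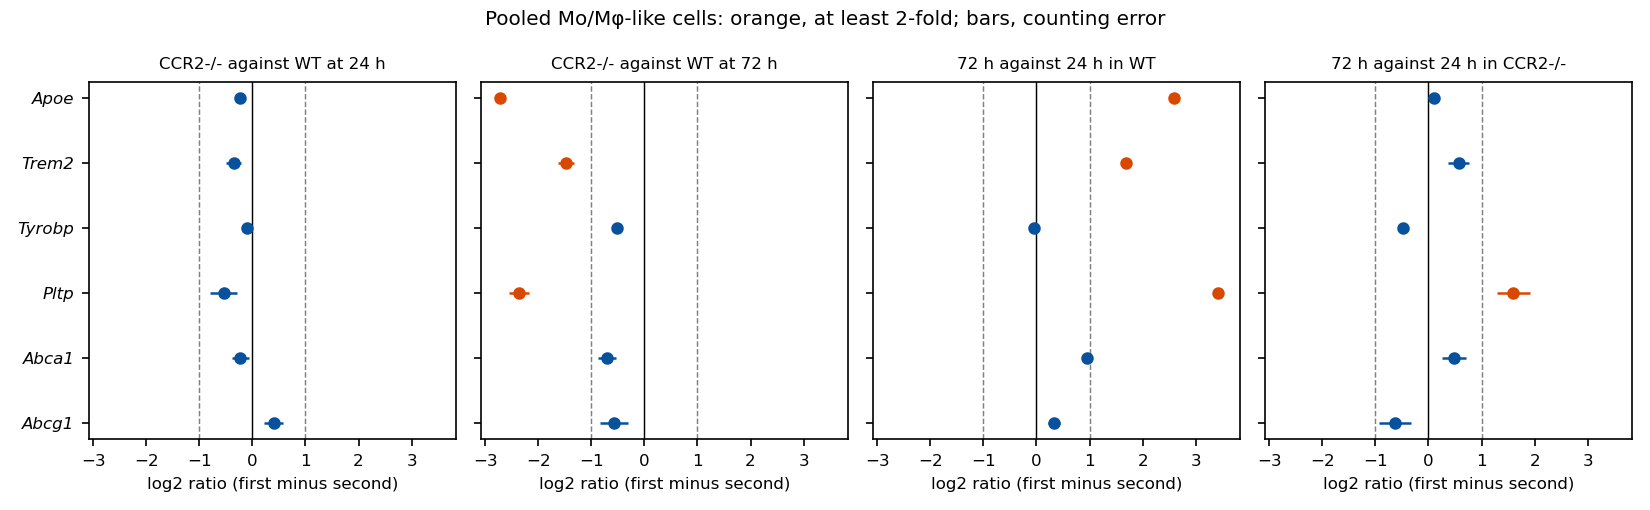
Log2 ratio of each gene in Mo/Mφ-like cells (x axis, first group minus second), 1 panel per comparison, with exact 95% counting intervals as bars. Apoe, Trem2 and Pltp lie beyond 1 in WT over time (2.59, 1.70 and 3.43) and beyond -1 in CCR2-/- against WT at 72 h (-2.73, -1.48 and -2.37), while all 6 lie within the limits at 24 h.

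The class is a mixture, and different sub-clusters held most of it in different libraries. At 24 h WT cells lay mainly in the Fabp5-like (339 cells), Arg1-like (305) and Ly6c monocyte-like (290 and 96) sub-clusters, whereas at 72 h they lay in the Cd206-like (401), Timp2-like (129) and an unnamed Ear2-led sub-cluster (185). The CCR2-/- cells lay mainly in an unnamed Fabp4-led (77) and the Cx3cr1-like sub-cluster (48) at 24 h, and in a dividing Igkc-led (41), the Cx3cr1-like (35) and the large peritoneal-like sub-cluster (34) at 72 h. Sub-clusters were built without the 6 genes, although Apoe was among the leading genes of the Cd206-like one.

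Apoe was highest in the Cd206-like cells of WT 72 h, at 39686 CPM. In the same library it stood at 30077 CPM in Cx3cr1-like, 17401 in Timp2-like, 13289 in Ear2-led, 3697 in S100a8-led Ly6c monocyte-like and 3131 CPM in large peritoneal-like cells. In that library S100a8-led monocyte-like and large peritoneal-like cells had the lowest of these levels. At 24 h WT levels ran from 1990 CPM in S100a8-led monocyte-like to 11908 CPM in Cx3cr1-like cells, with 6533 CPM in the Gm9733-led monocyte-like cells. The lowest level over the 22 sub-cluster pools of at least 20 cells was 434 CPM (44 UMIs), in the large peritoneal-like cells of CCR2-/- 72 h, whose median depth was 1600 UMIs.

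Trem2 and Abca1 were also highest in Cd206-like cells of WT 72 h, at 690 and 301 CPM, although the Abca1 interval (286 to 316 CPM) overlapped that of Cx3cr1-like cells (212 to 307 CPM). Pltp peaked elsewhere, in Timp2-like cells of WT 72 h, at 1059 CPM against 584 CPM in Cd206-like cells. Abcg1 was highest in large peritoneal-like cells of WT 72 h, at 232 CPM on 27 UMIs (153 to 338 CPM), next to 146 CPM in Timp2-like cells (130 to 164 CPM), and stood at 58.7 CPM in Cd206-like cells. Tyrobp was highest in S100a8-led monocyte-like cells, at 3127 CPM (WT 24 h) and 3536 CPM (WT 72 h), and lowest in the dividing cells of CCR2-/- 72 h, at 958 CPM. The 6 genes therefore did not share a single peak among the sub-clusters.

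**Figure D4:**
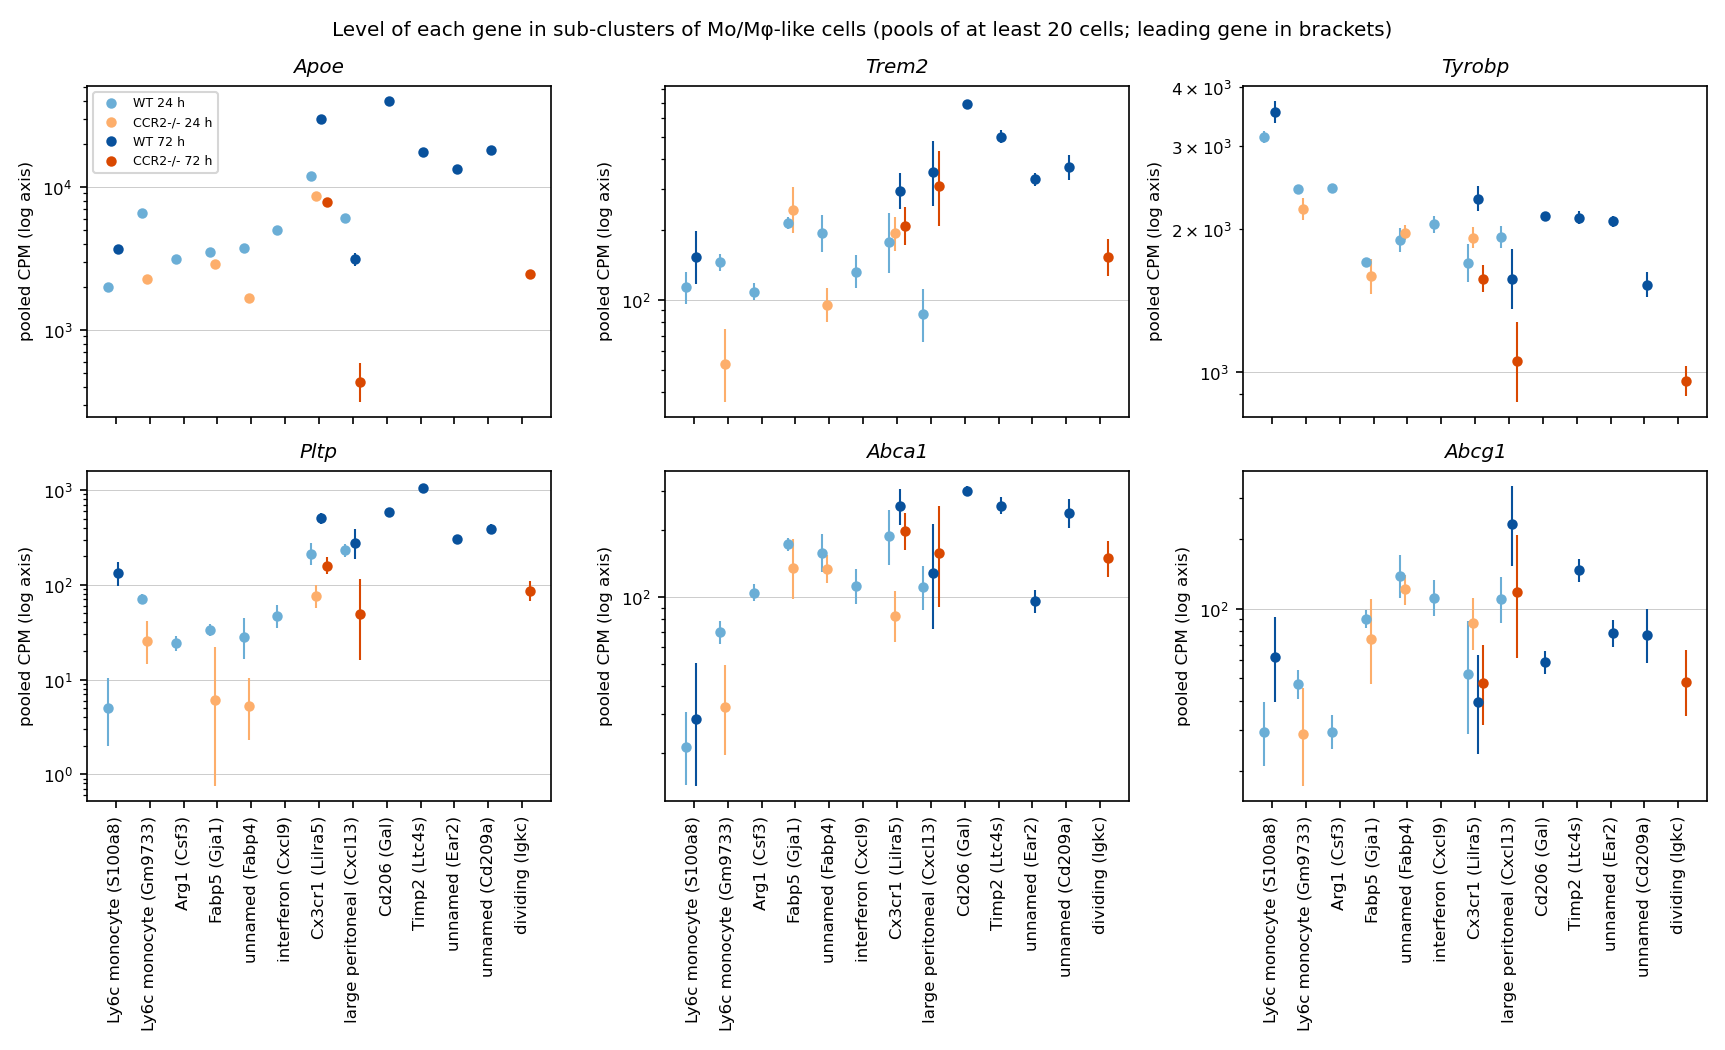
Pooled level of each gene (CPM, log axis) in the 22 pools of Mo/Mφ-like sub-cluster and library with at least 20 cells, with exact 95% Poisson intervals as bars. Apoe is highest in Cd206-like cells of WT 72 h (39686 CPM), Pltp in Timp2-like cells of WT 72 h (1059 CPM) and Abcg1 in large peritoneal-like cells of WT 72 h (232 CPM).

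Cx3cr1-like cells, named from Cx3cr1, Cd81 and Cd72, were the only sub-cluster with at least 20 cells in all 4 libraries (24, 48, 44 and 35 cells). Their Apoe level was 11908 CPM in WT 24 h, 8661 in CCR2-/- 24 h, 30077 in WT 72 h and 7827 CPM in CCR2-/- 72 h, and Pltp followed the same order at the top with 214, 75.7, 502 and 160 CPM. WT 72 h was again the highest library for both genes. At 72 h Apoe and Pltp were at least 2-fold lower in CCR2-/- than in WT cells, with log2 ratios of -1.94 (-1.99 to -1.89) and -1.62 (-1.98 to -1.27), where 3.7% of 6358 genes were that much lower. Between 24 h and 72 h in WT both were at least 2-fold higher, with 1.34 (1.28 to 1.39) and 1.21 (0.79 to 1.65), where 8.9% of 6505 genes were. Ccr2 in the same WT cells stood at 78.7 CPM at 24 h and 354 CPM at 72 h (log2 ratio 2.10), and its part in these differences was not tested. Trem2 stood at 176, 193, 294 and 208 CPM and did not pass in either comparison, at -0.49 (-0.85 to -0.13) between genotypes at 72 h and 0.72 (0.24 to 1.22) over time in WT.

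Pltp and Abca1 of Cx3cr1-like cells passed in the remaining 2 comparisons, on few UMIs. Abca1 had 187, 82.6, 256 and 199 CPM in these cells, on 50 to 116 UMIs per library. At 24 h Pltp and Abca1 were lower in CCR2-/-, at -1.44 (-1.97 to -0.90) and -1.14 (-1.68 to -0.59), where 5.26% of 6498 genes were that much lower. Over time in CCR2-/- they were higher, at 1.03 (0.55 to 1.51) and 1.22 (0.77 to 1.67), where 6.79% of 6601 genes were. Each of these 4 intervals reached inside the limit of 1.

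The Apoe difference between genotypes at 72 h was divided into a part from cell makeup and a part from level within each kind of cell, each weighted by the average of both libraries. Over all cells Apoe was 870 CPM in CCR2-/- and 20195 CPM in WT, and 39.2% of that difference came from class makeup and 60.8% from levels within classes. Inside the Mo/Mφ-like class the split was 29.5% from sub-cluster makeup and 70.5% from levels within sub-clusters. The latter rests in part on small pools, such as the 6 Cd206-like cells of CCR2-/- 72 h, whose Apoe level was 15359 CPM. For Trem2 the makeup part in the class was 36.7% and for Pltp 18.7%. Over time in WT, makeup gave 44.3% of the Apoe, 64.3% of the Trem2 and 33.7% of the Pltp difference within the class. This split too rests on small pools, because few sub-clusters were well filled in both WT libraries. At 24 h and 72 h there were 7 and 401 Cd206-like, 305 and 1 Arg1-like and 339 and 3 Fabp5-like cells. Timp2-like cells numbered 0 and 129. A sub-cluster absent from 1 library was given the level of the other, so it counted as makeup alone. At 24 h the Apoe difference over all cells, 1314 CPM in CCR2-/- against 3923 CPM in WT, came mostly from class makeup (83.4%). Inside the Mo/Mφ-like class the parts had opposite signs in 2 comparisons. At 24 h the Apoe difference of CCR2-/- from WT cells, -654 CPM, was the sum of a makeup part of 1231 CPM and a level part of -1885 CPM. Over time in CCR2-/- the difference of 254 CPM was the sum of a makeup part of 5286 CPM and a level part of -5032 CPM. Both of these parts rest largely on 1 cell, the only dividing Igkc-led cell of CCR2-/- 24 h. It held 2.92% of the Apoe UMIs of the class on 0.44% of all its UMIs. At 72 h this sub-cluster had 41 cells and 38.1% of the UMIs of the class.

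Trem2 and Apoe were also compared within cells. Of thinned Mo/Mφ-like cells in WT 72 h, the 310 with a Trem2 UMI had a mean of 31.3 Apoe UMIs per 1000, against 23.1 in the 550 without. The same means were 5.50 (167 cells) against 4.24 (1100 cells) in WT 24 h, 7.57 (21) against 3.62 (193) in CCR2-/- 24 h and 3.95 (22) against 3.14 (108) in CCR2-/- 72 h. The mean was higher in cells with a Trem2 UMI in all 4 libraries, whereas the share of cells with an Apoe UMI was not, at 63.6% (40.7% to 82.8%) against 68.5% (58.9% to 77.1%) in CCR2-/- 72 h. The median there was 1 Apoe UMI both with and without a Trem2 UMI, whereas in the other libraries it was higher with one. The means have no interval, and the cells were pooled over sub-clusters. Pltp UMIs were found in 31.9% of WT 72 h cells with and 35.3% of those without a Trem2 UMI, with overlapping intervals.

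Neutrophil-like cells carried much Tyrobp and Abcg1 and no detected Pltp. Their Tyrobp level was 5880, 6334, 7659 and 5656 CPM in WT 24 h, CCR2-/- 24 h, WT 72 h and CCR2-/- 72 h, above the Mo/Mφ-like level in each library. Pltp had 0 UMIs in all 4 libraries, which by the same limit of 3 counts allows at most 0.734 to 12.0 CPM. Abcg1 stood at 95.1, 184, 124 and 72.0 CPM, highest in CCR2-/- 24 h, where a Rab15-led cluster of 151 neutrophil-like cells had 316 CPM (269 to 370). The log2 ratio of Abcg1 over time in CCR2-/- neutrophil-like cells was -1.30 (-1.63 to -0.98). Abca1 was highest in WT 24 h, at 93.7 CPM against 36.9, 19.9 and 20.04 CPM, with log2 ratios of -1.24 (-1.63 to -0.84) between genotypes at 24 h and -1.99 (-3.16 to -0.87) over time in WT. Apoe in these cells was 67.9, 50.8, 223 and 42.8 CPM.

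In dendritic cell-like cells Pltp was found in each library, and Apoe mainly in one. Pltp stood at 72.8, 83.0, 209 and 105 CPM, with 261 CPM in the Ccl17-led cluster of WT 72 h. Apoe had 242, 9.81, 2288 and 35.5 CPM, and 1 cell held 240 of the 253 UMIs of WT 24 h. The value of WT 72 h came mainly from the Xcr1-led cluster of WT 72 h (63 cells, 4099 CPM), in which 19 cells (30.2%) had at least 10 Apoe UMIs. The same cluster in CCR2-/- 72 h (61 cells) had 30.8 CPM and 1 such cell. The myeloid gene Lyz2 and the complement gene C1qa stood at 2983 and 1215 CPM in the first and at 160 and 46.0 CPM in the second. Lyz2 also had 1589 CPM in the Ccl17-led cluster of WT 72 h, where C1qa had 57.0 CPM. The part of these 2 genes in the Apoe difference was not tested.

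Tyrobp was carried by NK cell-like cells as well, at 2633 and 2335 CPM in the CCR2-/- libraries with at least 20 such cells (24 h and 72 h), and by a Siglecf-led cluster, at 4537 to 5236 CPM in the 3 libraries with at least 20 such cells. Abcg1 in the Siglecf-led cluster was 86.3, 140 and 105 CPM in CCR2-/- 24 h, WT 72 h and CCR2-/- 72 h. T cell-like cells had 4998 Apoe CPM in WT 72 h, but 87.2 CPM without 3 droplets that held at least 20 Lyz2 UMIs. B cell-like cells, whose leading genes are immunoglobulin genes, had 382 Apoe CPM in CCR2-/- 24 h (36 cells, 126 UMIs). An Apoe UMI was found there in 52.8% of B cell-like cells (median depth 5329 UMIs) and in 4.26% of T cell-like cells (7199 UMIs), counted on unthinned cells. The same B cell-like cells held 5 Lyz2 and 3 C1qa UMIs. In WT 72 h the B cell-like level was 15942 CPM, and 733 CPM without 7 droplets of the same kind.

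The wider lipid programme of Mo/Mφ-like cells was read from 6 lists of genes. The list of 13 genes of LXRs and their targets leaves out Apoe, Pltp, Abca1 and Abcg1. Of its 9 or 10 genes at the tested level, 0 to 2 passed the 2-fold rule in a comparison as reported. These counts were not stable. At 72 h 2 of 9 were higher in CCR2-/- without the sub-clusters led by genes of other cells, against 2.28% of all genes. With at most 5% mitochondrial UMIs 2 were higher and 1 lower, against 5.36% and 3.37%. Over time in CCR2-/- that setting gave 2 of 10 higher and 2 lower, against 5.44% and 3.44%. Between genotypes at 24 h 1 of 10 was higher and 1 lower, against 2.25% and 0.954% of all genes. Over time in WT 1 of 10 was higher and 1 lower, against 5.2% and 4.85%. Nr1h3, which encodes LXRα, was lower at 72 h than at 24 h in both genotypes, at -1.63 (-1.80 to -1.46) in WT and -1.62 (-2.06 to -1.17) in CCR2-/-. Rxra, the partner receptor, was higher over time in WT, at 1.11. Lpl, the lipoprotein lipase gene, was higher (1.10) and the phosphodiesterase gene Smpdl3a lower (-1.02) in CCR2-/- than in WT at 24 h.

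Among receptors for lipid uptake, the scavenger receptor gene Cd36 was higher in CCR2-/- at both times, at 2.42 (240.7 against 40.9 CPM) and 2.26 (258 against 50.1 CPM). Msr1, another scavenger receptor gene, was higher in CCR2-/- at 72 h (1.42) and lower at 72 h than at 24 h in WT (-2.03). Plin2, which coats lipid droplets, was lower at 72 h in both, at -1.66 and -1.88. Over time in CCR2-/-, Npc1, which exports cholesterol from lysosomes, was lower (-1.23) and the lipid transporter gene Abca7 higher (1.23).

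Genes of cholesterol synthesis were higher over time in CCR2-/- Mo/Mφ-like cells: 8 of the 11 at the tested level passed, against 7.69% of all genes, among them Idi1 (2.18), Msmo1 (1.72), Stard4 (1.60) and Hmgcs1 (69.1 against 21.2 CPM), with a list median of 1.45 where that of all genes was 0.13. In WT 0 of 9 passed and the median was 0.62. At 72 h 2 of 11, Idi1 (1.17) and Fdft1 (1.02), were higher in CCR2-/- than in WT, against 4.13% of all genes. In CCR2-/- the dividing Igkc-led sub-cluster (1 of 219 cells at 24 h, 41 of 147 at 72 h), the plasma cell markers (13.8 and 246 CPM) and the median mitochondrial share (3.54% and 5.84%) moved with the time contrast. Without the sub-clusters led by genes of other cells 11 of 13 genes were higher over time in CCR2-/-, against 5.66% of all genes. In the same setting 8 of 13 were higher than in WT at 72 h, against 2.28%. Among cells with at most 5% mitochondrial UMIs 12 of 13 were higher in each of the 2 comparisons, against 5.44% and 5.36% of all genes.

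The list of genes that accompany Trem2 in lipid-laden Mφs had a median of the opposite sign to Trem2 in 2 comparisons as reported. At 24 h 6 of its 10 genes at the tested level were higher in CCR2-/- than in WT, against 2.25% of all genes, with Cd9 at 2.61, Csf1 at 2.33, Itgax at 2.21 and Spp1 at 2.20, while Trem2 had -0.35. Over time in CCR2-/- 8 of 10 were lower, against 4.02% of all genes, with Spp1 at -2.72, Csf1 at -2.25, Gpnmb at -1.92 and Ccl6 at -1.501, while Trem2 had 0.57. These counts were 6 and 7 of 10 both without the sub-clusters led by genes of other cells and with at most 5% mitochondrial UMIs. The shares over all genes were 2.20% and 3.32% in the first setting and 2.11% and 3.44% in the second. With at most 5% mitochondrial UMIs the list median had the opposite sign to Trem2 in the other 2 comparisons too. It was 0.32 in CCR2-/- against WT at 72 h and -0.14 over time in WT. In WT over time, where Trem2 had 1.70, Axl was higher (2.001) and Spp1 lower (-1.12). The Fabp4-led sub-cluster, with 77 of the 219 CCR2-/- cells at 24 h, had Csf1, Cd9 and Spp1 among its leading genes. Of the Trem family and Tyrobp-linked signalling genes, Trem3 was lower over time in WT (-1.96) and Clec5a, another receptor that pairs with DAP12, lower over time in CCR2-/- (-1.13), and none passed between genotypes.

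**Figure D5:**
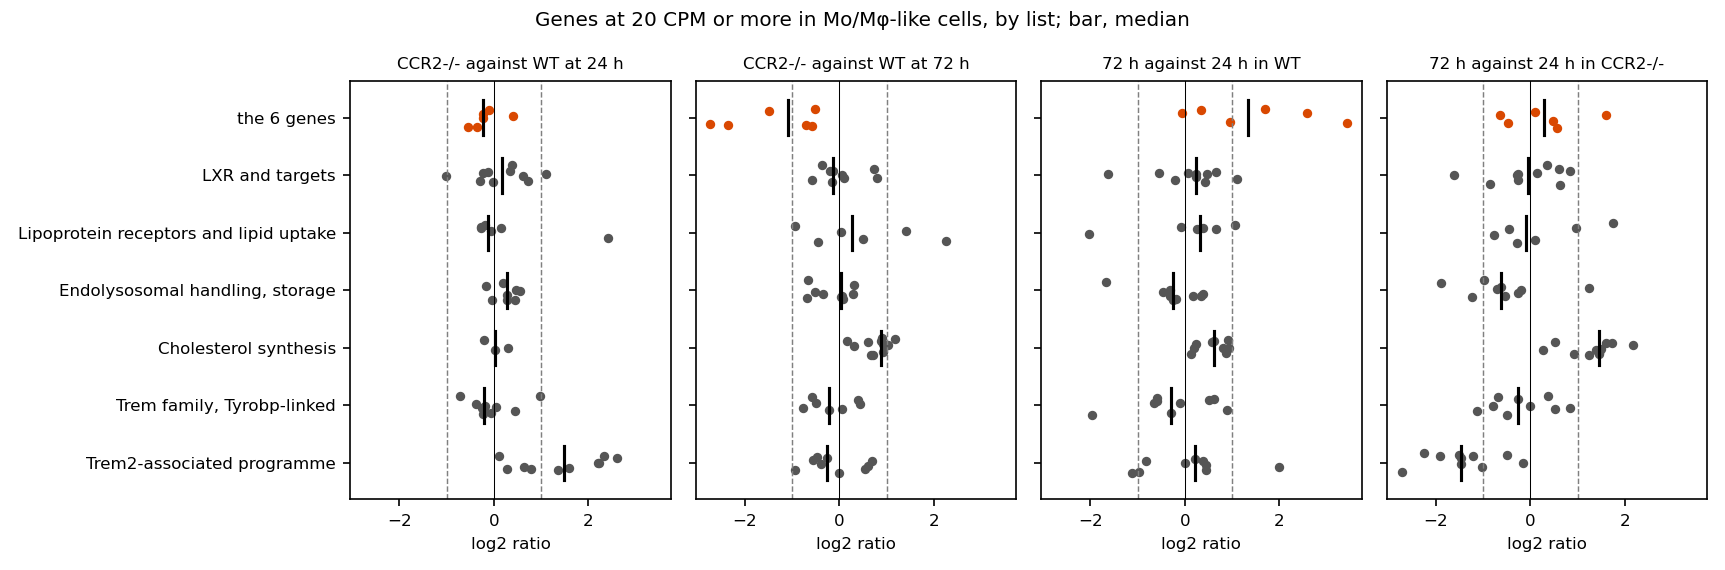
Log2 ratio of every gene of the 6 lists that reached the tested level in Mo/Mφ-like cells (x axis), 1 panel per comparison, with the lists as rows and the 6 genes studied in a row of their own. Cholesterol synthesis genes lie to the right in CCR2-/- over time (median 1.45), and the Trem2-associated list lies to the right in CCR2-/- against WT at 24 h (median 1.48) and to the left in CCR2-/- over time (median -1.47).

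Over the 22 sub-cluster pools, the genes whose log2 level was most like that of Apoe among 5406 genes were Pla2g15, a lysosomal phospholipase gene (Pearson's r = 0.90), Msl1 (0.87), Trf (0.87), Rnf150 (0.87) and Pnpla7 (0.86). Those most like Trem2 were Gltp (0.87), a glycolipid transfer protein gene, Zmym5 (0.84), Dip2b (0.78), Fbxw4 (0.78) and Nckap1l (0.77). Among the 6 genes Pltp was closest to Apoe (0.75), followed by Trem2 (0.51), Abca1 (0.45), Tyrobp (0.25) and Abcg1 (-0.10). The pools share 4 libraries and differ in depth, and the values describe these pools only.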

How the data were processed

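The deposited tables hold raw UMI counts per gene and cell, 1 library for each genotype and time, grouped by the labels. Per the labels, the authors made the libraries with a 10x Genomics kit that tags the 3′ end and used Cell Ranger 3.0.2 with GRCm38 (mm10) for alignment and UMI counts. Every deposited cell had at least 250 genes and at most 9.99% mitochondrial UMIs. Whether doublets were removed is not given in the sources used here.

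Of 5811 cells, 13 with non-immune markers were left out. Cells were clustered with scanpy 1.11.5 and leidenalg 0.10.2 in Python 3.11.15 (numpy 2.4.6, scipy 1.17.1, pandas 2.3.3): 10000 UMIs per cell, log scale, 2000 variable genes, 30 principal components, 20 neighbours, Leiden resolution 1. A set of 76 genes (the 6 genes, the lipid and Trem lists and Ccr2) was held out, and the libraries were not integrated. Classes and sub-clusters were named from markers, with at least 3 markers detected. CPM are pooled UMIs per 1000000 with exact Poisson intervals, ratios have a pseudocount of 5 CPM and exact binomial intervals, and shares have exact binomial intervals. Named from each list were at most the 4 genes furthest past the 2-fold limit in a comparison. Without replicates no test was made. UMIs of a cell are not independent of each other, and intervals cover counting error only. The ratio script was tested on simulated data.

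The 6 genes and the lists were chosen with earlier results of these data known. The rule that leaves a cluster unnamed for its leading genes, the non-immune filter, the score limits and the definition of droplets of 2 classes (Mo/Mφ-like with at least 3 lymphocyte markers, or lymphoid with at least 20 Lyz2 UMIs) were set after the clusters had been seen, as was the naming of classes where each library was clustered on its own. Vldlr, Treml1 and Clec7a of the lists are not analysed here, and a further gene of the lists is not reported here. The alternatives were other class definitions, resolution 2, removal of Scrublet calls, 5% mitochondrial UMIs, edgeR 4.0.16 TMM factors, the mean over cells, a pseudocount of 1, no minimum level and thinning to 2000 UMIs. The list counts without some sub-clusters and at 5% mitochondrial UMIs were added after the data had been seen.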

Additional observations from a re-analysis of the deposited data

Results flagged for a closer look

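Abcg1, the gene of a cholesterol efflux pump, had ratios of opposite sign in paired contrasts of Mo/Mφ-like cells. Its log2 ratio of CCR2-/- to WT was 0.40 at 24 h and -0.57 at 72 h, and its log2 ratio of 72 h to 24 h was 0.34 in WT and -0.63 in CCR2-/-. The sign of each was the same under all 13 other settings, although the smaller pseudocount and the dropped minimum level cannot change a sign. None passed the 2-fold limit as reported. With 1 library per group the difference between these contrasts was not tested. Both pairs rest on the same 4 libraries and so are 1 pattern, in which Abcg1 was higher in CCR2-/- 24 h (85.0 CPM) and WT 72 h (81.3 CPM) than in WT 24 h (63.2 CPM) and CCR2-/- 72 h (53.0 CPM). Divided as for Apoe, the sub-cluster makeup and level parts were 25.5 and -3.74 CPM between genotypes at 24 h. At 72 h they were -30.8 and 2.58 CPM. Over time they were 5.99 and 12.0 CPM in WT and -27.9 and -4.10 CPM in CCR2-/-. Small pools enter this split too.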

How the results depend on the processing

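All 13 alternatives kept Apoe, Trem2 and Pltp past the 2-fold limit at 72 h between genotypes and in WT over time, and none of the 6 genes past it at 24 h. Dropping the minimum level leaves every ratio as it was, and a smaller pseudocount can only widen one. For CCR2-/- against WT at 72 h the Apoe log2 ratio was -2.73 as reported, -2.61 with each cell classed by its own markers, -2.65 with each library clustered on its own, -2.62 at resolution 2, -3.00 with at most 5% mitochondrial UMIs, -2.44 without sub-clusters led by genes of other cells, -2.91 with TMM and again -3.00 as a mean over cells. For 72 h against 24 h in WT, reported as 2.59, it was 2.61, 2.51 (own clustering), 2.70 (5%), 2.63 (without sub-clusters led by other cells), 2.43 (TMM) and 2.51 (mean over cells). In settings added after the data had been seen, the 2 ratios were -2.86 and 2.63 with all deposited cells clustered and -2.68 and 2.62 without the large peritoneal-like sub-cluster, and the first was -2.70 without droplets of 2 classes. The number of the 6 genes past the limit over time in CCR2-/- was 1 as reported, 2 with cells classed by their own markers (Abcg1 at -1.09 joined Pltp) and 0 with at most 5% mitochondrial UMIs, where 50 CCR2-/- 72 h cells remained. At 72 h the 5% setting added Abca1 (-1.52), for 4 genes.

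TMM moved the median of all tested genes from 0.12 to -0.06 for CCR2-/- against WT at 72 h and from 0.13 to -0.10 for CCR2-/- over time. Thinning to 2000 UMIs raised the share with an Abca1 UMI to 26.4% in CCR2-/- 72 h and 31.8% in WT 72 h, from 8.46% and 21.4%. Scrublet called 10 cells (0.172%) and is not taken to have found the doublets. No paired analysis was possible because each group has 1 library and no result comes from a test.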

Other observations

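Pltp UMIs were also dense in a Siglech-led cluster of 9 cells, which rested on too few markers to be named. Pltp stood at 1277 CPM (904 to 1753) in its 2 cells of CCR2-/- 24 h and at 1272 CPM (1039 to 1541) in its 6 cells of CCR2-/- 72 h, above the 560 CPM of Mo/Mφ-like cells of WT 72 h. Abcg1 had 0 UMIs in both. These are too few cells for a level of the cell type.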
